A study of Caenorhabditis elegans with 8 samples.

Results

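The insulin-like peptide genes of *Caenorhabditis elegans* were taken as the genes named *ins* with a number together with *daf-28*. The array names 24902 targets, called genes below, and 40 of them belonged to this family. Targets without a RefSeq gene were counted under the array's own name for them. Of the 20655 targets tested, 17057 carried a RefSeq symbol or locus. The 40 genes of the family were found on the array through sequence names and RefSeq transcripts. They were measured by 102 probes, between 1 and 9 per gene. The choice used names only and no measured value. RNA was prepared from *aptf-1(gk794)* mutants and wild-type N2 at the pretzel stage, when the late embryo is folded in its eggshell. *aptf-1* encodes an AP2 transcription factor that the sleep neuron RIS needs, and the arrays were made to find genes whose expression depends on it. Each genotype had 4 samples of about 3000 picked embryos, listed as whole hermaphrodites from plates kept at 21.5°C, and 200 ng of total RNA of each sample was labelled with Cy3 and hybridised to its own Agilent array. The mutation is present in all cells of the mutant animals, and no treatment was given to either genotype. The records do not say whether the samples of a genotype came from separate cultures, so p-values measure the spread between these samples. Both of the 2 slides used held 2 mutant arrays and 2 N2 arrays, with replicates 1 and 2 on slide 1 and replicates 3 and 4 on slide 2.

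Insulin-like peptides are small secreted proteins that are cut from precursors and released from neurons, intestine and other tissues. They bind DAF-2, the insulin and IGF receptor of the worm, and some act as agonists while others act as antagonists. Agonists drive a kinase chain that keeps the FOXO factor DAF-16 out of the nucleus and so favour reproductive growth over entry into the dauer larva, a resistant larval form. Because whole embryos were measured, fewer cells that express a gene and less RNA per cell cannot be told apart.

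A signal is a log2 value from which the 75th percentile of the array was subtracted, and the value of a gene is the mean over its tested probes. The labels were checked on the mutated gene. The probe of *aptf-1* gave -1.38, -1.50, -1.82 and -1.49 in mutant replicates 1 to 4 and 0.73, 0.25, 0.65 and 0.41 in N2 replicates 1 to 4, so that all mutant arrays lay below all N2 arrays (log2 fold change -2.06 ± 0.14 standard error, limma adjusted p = 0.00215 by Benjamini-Hochberg over all genes). Markers of body muscle, neurons, epidermis, intestine and pharynx, 12 genes in all, were above background on all 8 arrays, with probes at the 58.3rd to 98.8th percentile of brightness in N2. Markers of adults and yolk lay at the 13.1st to 44.2nd percentile, those of early embryos at the 35th to 51.1st and those of sperm at the 17.1st to 34.2nd. None of these markers had an unadjusted p under 0.05 between the genotypes, although the summed epidermis markers ranged from 44.1 to 60.8 in the mutant and from 34.1 to 45.2 in N2, in units of the 75th percentile. Over the array 20655 genes were tested in limma, and 8 were called, which means a fold change of 1.5 or more at an adjusted p under 0.05.

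Most insulin-like peptide genes were marked as above background, as were most genes on the array. The mark alone does not show that a gene is in use at this stage. Markers of adults and yolk carried it on all 8 arrays for 3 of 4 genes, those of early embryos for 3 of 3 and those of sperm for 1 of 2. For 37 of the 40 genes the scanner software marked a probe as well above background on 4 or more of the 8 arrays, beside 83.2% of all genes on the array, and for 34 of the 40 it did so on all 8, beside 77.7% of all genes. The 3 genes between these counts were *ins-9* and *ins-25*, each missing on 1 mutant array, and *ins-31*, detected on 3 mutant arrays and 1 N2 array. *ins-8* was above background on no array, as were 9.64% of all genes. *ins-13* was above background on 1 mutant array and 1 N2 array, and *ins-19* on 2 mutant arrays and 1 N2 array. For these 3 genes the arrays give no level, and they were not tested. Each array detected 36 to 39 of the 40 genes, with no genotype apart from the other: 36, 37, 39 and 36 on mutant replicates 1 to 4 and 38, 37, 36 and 36 on N2 replicates 1 to 4. *ins-38*, listed as a pseudogene in RefSeq, was above background on 4 of 4 arrays of each genotype with 5 of 5 probes tested.

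The probes of these genes were dim for the most part. In N2 the median insulin-like peptide gene lay at the 36.3rd percentile of brightness among all probes, where the median over all genes was the 49.2nd. Of the 40 genes, 30.0% were at or above the 50th percentile, beside 49.2% of all genes, and 1 gene was at or above the 75th, beside 23.4% of all genes. A percentile describes how bright a probe is and does not order genes by RNA, since probes bind unequally: for genes with several probes the percentiles of those probes spanned 4.48 points in the median gene and 16 points in *ins-12*. *ins-1*, at the 83.2nd percentile, was the only gene of the family above the 75th. *ins-17*, *ins-22* and *ins-18* followed at the 74.7th, 73.7th and 72.9th percentile, less than that median span apart. *ins-6*, *ins-34*, *ins-10*, *ins-27*, *ins-30*, *ins-14*, *ins-35* and *ins-3* made up the rest of the 12 genes above the median probe, between the 52.5th and the 70.1st percentile. A further 20 genes lay between the 25th and the 50th percentile, among them *daf-28* at the 43.8th, *ins-4* at the 41.2nd and *ins-7* at the 28.2nd. At the lower end 8 genes lay under the 25th percentile: *ins-15*, *ins-29*, *ins-25*, *ins-9*, *ins-31* and the 3 untested genes.

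**Figure D1:**
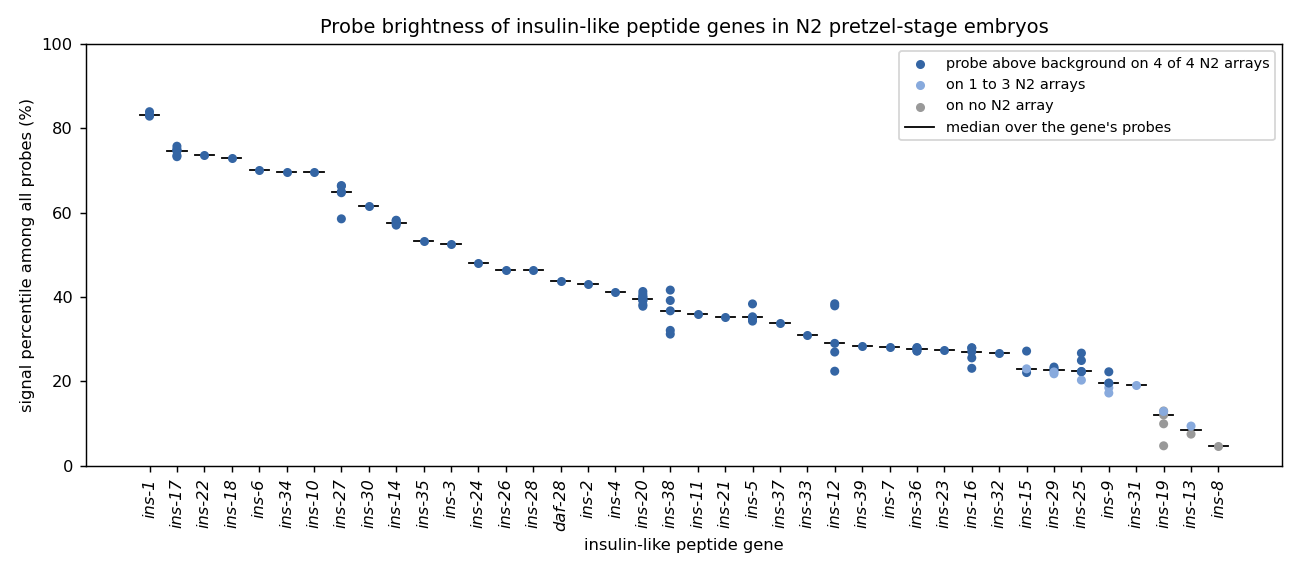
Brightness of each probe of the 40 insulin-like peptide genes in N2 pretzel-stage embryos, as the percentile of its mean log2 signal on 4 arrays among all probes (vertical axis), with genes ordered along the horizontal axis by the median of their probes (black bars). *ins-1* stands at the 83.2nd percentile, 20 genes lie between the 25th and the 50th, and grey points mark probes above background on no N2 array.

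The question put to the arrays was which genes depend on *aptf-1*, and no gene of this family passed the threshold for a call. Of the 37 insulin-like peptide genes tested, 0 were called, where 0.0387% of all genes were. At so low a share most sets of 37 genes hold no call, so the count says little about this family. Taken singly, 0 of the 94 tested probes of the family were called, where 0.0504% of all probes were. The smallest adjusted p of a gene in the family was 0.9997 from limma. Before adjustment 2 of the 37 had a p under 0.05, *ins-20* and *ins-16*, both lower in the mutant, where 2.23% of all genes were lower at that threshold and 0.828% higher. Of the 94 tested probes of the family 10 had such a p, all lower in the mutant, where 2.1% of all probes did, and 7 of the 10 were probes of *ins-20*. In 0 of the 37 genes did the mutant and N2 arrays fail to overlap, where 1.32% of all genes had every mutant array below every N2 array and 0.717% had every mutant array above. The estimate was below 0 for 23 genes and above 0 for 14, so 62.2% were below 0, beside 55.0% of all genes. The median log2 fold change of the family was -0.0963, and that of all genes tested -0.0175. The family median depended on single arrays: without mutant replicate 1 it was -0.00113, nearer to 0 than the median of all genes (-0.0257), and without N2 replicate 4 it was -0.0331, beside -0.0339 for all genes. Without mutant replicate 3 or 4 it was -0.0496 or -0.0439, and without N2 replicate 2 or 3 it was -0.0583 or -0.0547. For 14 of the 37 genes, 37.8%, the 95% interval of the difference lay within 1.5-fold in both directions, beside 67.7% of all genes, and for the other 23 the interval reached past 1.5-fold in at least 1 direction.

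**Figure D2:**
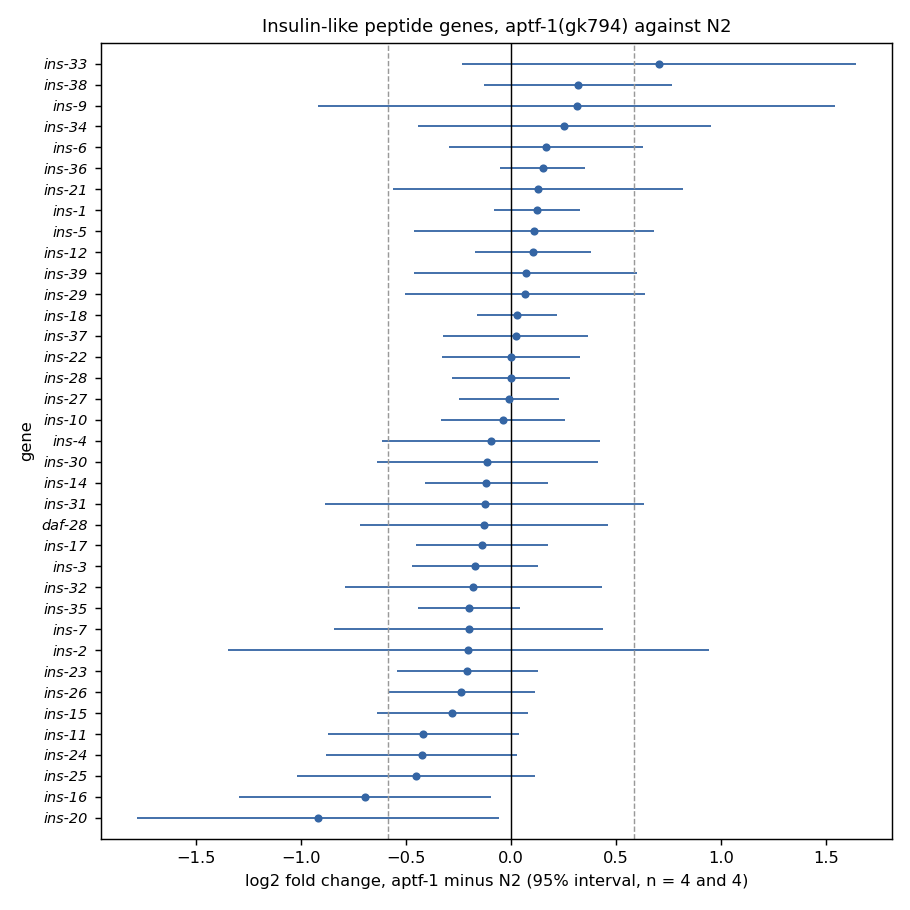
Log2 fold change in *aptf-1(gk794)* against N2 (horizontal axis) of the 37 tested insulin-like peptide genes (vertical axis, ordered by estimate), with 95% intervals from limma over 4 and 4 arrays. Dashed lines mark 1.5-fold; the intervals of *ins-20* and *ins-16* lie below 0 before adjustment, and 14 intervals lie between the dashed lines.

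*ins-20* had the lowest estimate of the family. Its signal was -6.07, -5.84, -4.76 and -5.34 on mutant replicates 1 to 4 and -4.51, -4.64, -3.79 and -5.39 on N2 replicates 1 to 4. Mutant replicates 1 and 2 lay below all N2 arrays, whereas mutant replicates 3 and 4 lay within the N2 range, whose lower end was replicate 4. The log2 fold change was -0.92 (standard error 0.38, 95% interval -1.78 to -0.06), which is 52.8% of the N2 signal, and the two-sided exact permutation test over the 70 assignments of arrays gave p = 0.0857. All 9 probes were lower in the mutant, with log2 fold changes from -1.06 to -0.79. These probes report the same 8 samples and are no replicates of each other. Slide 1 gave -1.39 and slide 2 gave -0.46. With normexp, a background correction that fits a normal and an exponential distribution, the log2 fold change was between -0.53 and -0.52. That setting started from median spot intensities and added an offset of 50 to each corrected intensity. Such an offset by itself draws the differences of dim probes towards 0, so the smaller value says little about *ins-20*.

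*ins-16* was also lower in most mutant samples. It gave -7.79, -7.55, -6.47 and -7.38 on mutant replicates 1 to 4, against -6.65, -6.77, -6.57 and -6.41 on N2 replicates 1 to 4. Again mutant replicate 3 fell among the N2 arrays while the other mutant arrays lay below them. The log2 fold change was -0.70 (standard error 0.26, 95% interval -1.30 to -0.10), or 61.7% of the N2 signal, with p = 0.114 in the exact permutation test. It was -0.96 on slide 1 and -0.43 on slide 2, and its 5 probes ranged from -1.01 to -0.54. These probes were dim, at the 23.1st to 27.9th percentile, and with normexp background correction the difference was between -0.15 and -0.13. The offset of 50 in that setting shrinks differences of such dim probes by itself, so these values do not test the difference.

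*ins-25*, from a row of 7 neighbouring genes on chromosome I, had the same order of mutant samples, at -8.12, -7.68, -6.87 and -7.33 in replicates 1 to 4, against -6.86, -7.27, -7.09 and -6.97 in N2. Its log2 fold change of -0.45 (standard error 0.25) was -0.84 on slide 1 and -0.07 on slide 2. With normexp and the 75th percentile it was -0.06, under the same offset of 50. In *ins-20*, *ins-16* and *ins-25* alike, mutant replicate 1 was the lowest and replicate 3 the highest mutant array. Over all probes these were also the mutant arrays with the smallest and the largest share above background, 80.2% and 83.1%, and the part of this in the differences was not tested.

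The other genes with the smallest p were *ins-24*, *ins-11* and *ins-35*. *ins-24*, the neighbour of *ins-25*, gave -4.08, -3.61, -3.71 and -3.52 in the mutant and -3.72, -3.18, -2.87 and -3.45 in N2, for a log2 fold change of -0.43 (standard error 0.20, exact permutation p = 0.143). *ins-11*, which the intestine makes in response to pathogenic bacteria, gave -5.66, -5.18, -5.98 and -5.39 in the mutant and -4.99, -5.10, -4.92 and -5.52 in N2, for a log2 fold change of -0.42 (standard error 0.20, exact permutation p = 0.114). For both genes the slides gave like values, -0.39 and -0.46 for *ins-24* and -0.37 and -0.46 for *ins-11*, and the ranges of the genotypes overlapped. *ins-35*, an intestinal peptide gene, gave -2.81, -2.56, -2.76 and -2.86 in the mutant and -2.59, -2.52, -2.40 and -2.68 in N2, for a log2 fold change of -0.20 (standard error 0.11). Its 95% interval, -0.44 to 0.04, leaves out a decrease of 1.5-fold.

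**Figure D3:**
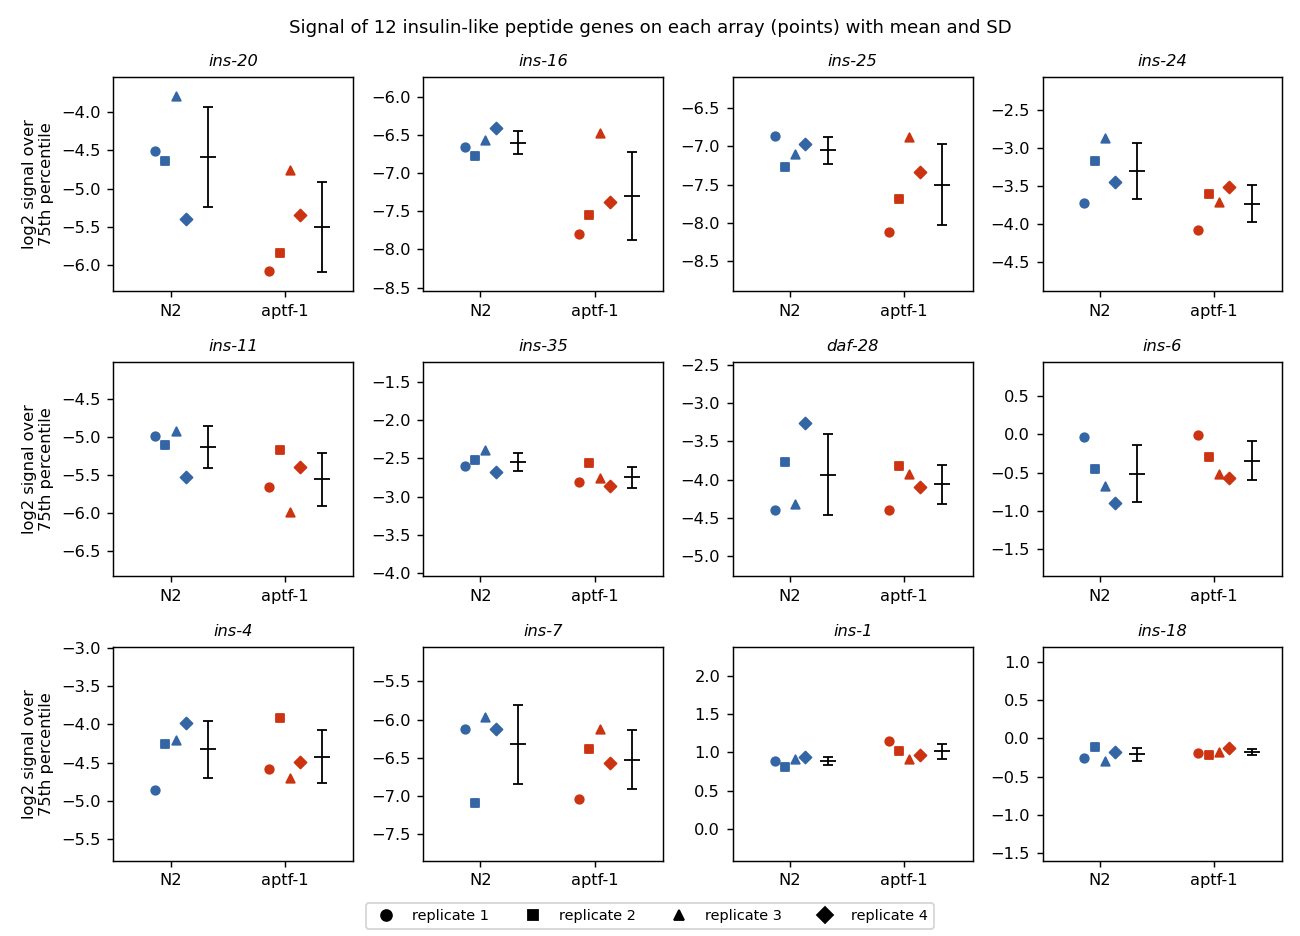
Signal of 12 insulin-like peptide genes on each array (vertical axes, log2 units over the 75th percentile, all spanning the same number of log2 units) in N2 (blue) and *aptf-1(gk794)* (red), with symbols for replicates 1 to 4 and the mean with SD in black. In *ins-20*, *ins-16* and *ins-25* mutant replicate 3 lies among the N2 arrays, and *ins-1* and *ins-18* vary least.

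Among the agonists that favour reproductive growth, *daf-28*, *ins-4* and *ins-6*, which sensory neurons express in larvae, no difference exceeded the spread. *daf-28* gave -4.40, -3.83, -3.93 and -4.10 in the mutant and -4.39, -3.76, -4.32 and -3.25 in N2. The difference was -0.13 (95% interval -0.72 to 0.46), and without N2 replicate 4, the highest array, it was 0.0975. The N2 arrays alone spanned more than the genotypes differed. *ins-4* gave -4.58, -3.91, -4.70 and -4.49 in the mutant and -4.86, -4.26, -4.20 and -3.99 in N2, a difference of -0.10 (95% interval -0.62 to 0.42) that was 0.31 on slide 1 and -0.50 on slide 2. *ins-6*, the brightest of these probes, gave -0.01, -0.29, -0.52 and -0.56 in the mutant and -0.03, -0.46, -0.67 and -0.89 in N2. Its difference was 0.17 (95% interval -0.30 to 0.63), with the genotypes almost fully overlapping. *ins-7*, an agonist of the intestine that shortens adult lifespan and is itself repressed by DAF-16, gave -7.04, -6.38, -6.12 and -6.57 in the mutant and -6.12, -7.09, -5.97 and -6.13 in N2, a difference of -0.20 (95% interval -0.84 to 0.44). For each of these 4 genes the interval reached past 1.5-fold in at least 1 direction.

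*ins-1* and *ins-18*, taken as antagonist-like, and *ins-17* and *ins-22*, described here for their bright probes, were not called either. *ins-1*, which resembles human insulin in keeping a C peptide and acts in neurons during learning, gave 1.15, 1.02, 0.91 and 0.96 in the mutant and 0.89, 0.81, 0.91 and 0.94 in N2. The difference was 0.12 (95% interval -0.08 to 0.33, exact permutation p = 0.0571), with 3 of 3 probes between 0.09 and 0.15, and it was 0.24 on slide 1 and 0.01 on slide 2. *ins-18*, whose product opposes DAF-2 signalling in dauer entry, gave -0.19, -0.22, -0.18 and -0.13 in the mutant and -0.26, -0.11, -0.30 and -0.18 in N2, a difference of 0.03 (95% interval -0.16 to 0.22). Its SD within genotypes, 0.0648, was the lowest of the family. *ins-17*, which favours dauer formation when overexpressed, gave -0.26, -0.13, -0.23 and -0.11 in the mutant and -0.37, -0.01, -0.07 and 0.27 in N2, a difference of -0.14 (95% interval -0.45 to 0.17). *ins-22*, known as a marker of dense-core vesicles when fused to a fluorescent protein, gave -0.04, -0.20, -0.21 and -0.08 in the mutant and 0.05, -0.22, 0.13 and -0.49 in N2, with a difference of -0.001 (95% interval -0.33 to 0.33). For these 4 genes the intervals leave out a change of 1.5-fold in either direction.

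Many of the genes lie next to each other, and no group of neighbours held a called gene. With gaps of up to 20 kb between members, the largest group was *ins-24* to *ins-30* on chromosome I, 7 genes with log2 fold changes from -0.45 to 0.07 and median probe percentiles per gene from the 22.3rd to the 65.0th. On chromosome II, *ins-2*, *ins-3*, *ins-4*, *ins-5*, *ins-6* and *ins-20* formed a group of 6 in which *ins-20* was at -0.92 and the other 5 between -0.20 and 0.17. The group of *ins-11*, *ins-12*, *ins-13* and *ins-38* ranged from -0.42 for *ins-11* to 0.32 for *ins-38*, with *ins-13* not tested. *ins-21*, *ins-22* and *ins-23* on chromosome III lay between -0.21 and 0.13. The remaining groups were pairs, *ins-14* with *ins-15*, *ins-19* with *ins-31* and *ins-7* with *ins-8*, the last pair holding a gene above background on all 8 arrays and a gene above background on none.

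Of the 40 genes 16 lie on chromosome II, which also carries *aptf-1*, and 12 of those lie within 1 Mb of *aptf-1*. The 11 of these 12 that were tested had a median log2 fold change of -0.118, with 7 estimates below 0, and *ins-20* was the only one with an unadjusted p under 0.05. The 26 tested genes that lie farther away or on other chromosomes had a median of -0.0232, with 16 estimates below 0, and 0 genes were called in either set. A mutant strain can carry sequence linked to the mutation, and its part in the values of *ins-20* and its neighbours was not tested.

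In 5 genes the probes of the same gene differed in sign. *ins-15* gave -7.52, -7.02, -7.35 and -6.95 in the mutant and -6.66, -7.07, -7.02 and -6.97 in N2, with probe differences from -0.64 to 0.01 around a mean of -0.28. *ins-12* gave -5.88, -5.73, -5.62 and -5.94 in the mutant and -5.64, -6.03, -5.93 and -5.99 in N2, with probes from -0.13 to 0.30 around 0.10. In these genes the probes spread more than the genotypes differed. *ins-27*, the brightest of the 5, gave -1.35, -1.13, -1.14 and -1.17 in the mutant and -0.99, -1.30, -1.22 and -1.25 in N2, and its probes lay between -0.08 and 0.04. *ins-29* gave -7.58, -6.67, -6.72 and -7.33 in the mutant and -7.17, -7.34, -6.64 and -7.41 in N2, with probes from -0.10 to 0.21. *ins-36* gave -6.28, -6.18, -6.35 and -6.24 in the mutant and -6.43, -6.41, -6.29 and -6.52 in N2, with probes from -0.03 to 0.24 around a mean of 0.15 (standard error 0.09, exact permutation p = 0.0571). All mutant arrays of *ins-36* but replicate 3 lay above all N2 arrays. Its SD within genotypes was 0.0832, low for a probe at the 27.7th percentile.

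The remaining genes had estimates with intervals across 0. The highest of the family was *ins-33*, at 0.71 (95% interval -0.23 to 1.65), which was 1.58 on slide 1 and -0.17 on slide 2 and had 1 high array, mutant replicate 2 at -3.93 against -5.78 to -5.32 on the other mutant arrays. *ins-38* followed at 0.32 (95% interval -0.13 to 0.77), with 5 probes from 0.15 to 0.49. *ins-9* was at 0.31 (95% interval -0.92 to 1.54) and *ins-2* at -0.20 (95% interval -1.35 to 0.94), the widest intervals in the family.

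The spread between replicate arrays was larger for this family than for the typical gene. The SD within genotypes had a median of 0.310 log2 units over the 37 genes, from 0.0648 for *ins-18* to 0.896 for *ins-9*, beside a median of 0.215 over all genes tested. Dim probes spread more on these arrays, and among genes at or above the 50th percentile the medians were 0.180 for the family and 0.173 for all genes. Among genes under the 50th percentile they were 0.397 and 0.323. *ins-9*, *ins-2*, *ins-33* and *ins-20* varied most, and *ins-18*, *ins-1* and *ins-36* least.

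**Figure D4:**
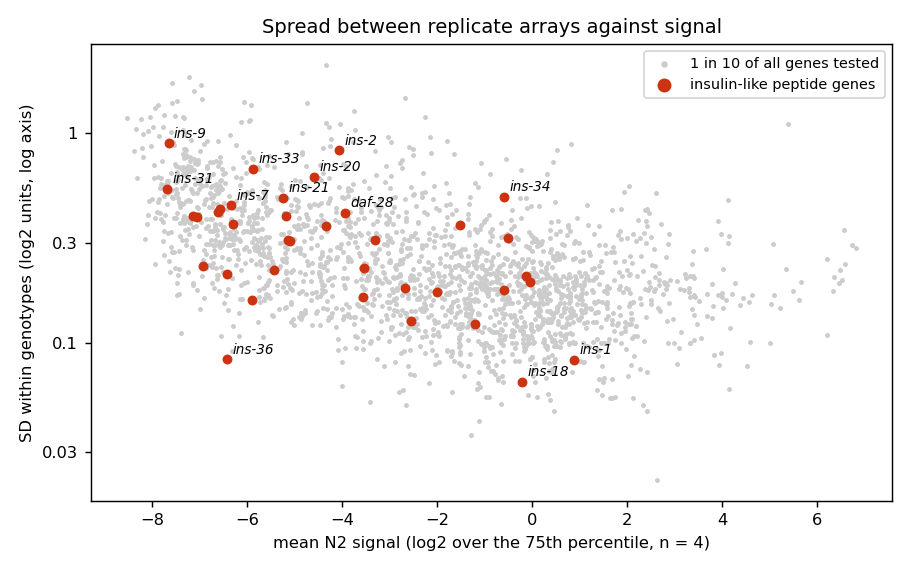
SD between replicate arrays within genotypes (vertical axis, log2 units on a log axis) against the mean N2 signal on 4 arrays (horizontal axis, log2 units over the 75th percentile) for the 37 tested insulin-like peptide genes (red) and for 1 in 10 of all genes tested (grey). Genes with a low signal spread more, and the family ranges from 0.896 for *ins-9* to 0.0648 for *ins-18*.

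The genes that process, receive and relay the peptides were examined alongside, together with 12 known targets of DAF-16. All are called signalling genes below. Of these 42 genes 41 were tested and 0 were called. An unadjusted p under 0.05 was found for 2 of them, *daf-2* and the target *mtl-1*, where 3.05% of all genes had one. The median log2 fold change of the 41 genes was -0.0312, and for 31 of them, 75.6%, the 95% interval lay within 1.5-fold. The 8 genes for maturation and release, among them the convertases *egl-3* at -0.01 and *kpc-1* at 0.01, lay between -0.15 and 0.16. The receptor gene *daf-2* gave -2.72, -3.20, -3.29 and -2.97 in the mutant and -2.54, -2.56, -2.59 and -2.97 in N2, a log2 fold change of -0.38 (standard error 0.16, 95% interval -0.74 to -0.03, exact permutation p = 0.0571). It was -0.41 on slide 1 and -0.35 on slide 2, and the genotypes overlapped through N2 replicate 4. The 6 genes listed for the kinase chain, which include the kinase subunit gene *aap-1* at -0.15, lay between -0.15 and 0.04. Among them *age-1*, the phosphoinositide kinase, was at -0.11, and every interval lay within 1.5-fold. *daf-16*, the FOXO gene, was at -0.13.

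Of the signalling genes that are known targets of DAF-16, 0 of 11 tested were called. Of their 11 estimates 10 were below 0, with a median of -0.0959. Over all genes 55.0% of estimates were below 0 and the median was -0.0175. The largest difference was in *mtl-1*, a metallothionein gene, which gave -0.79, -0.58, -0.58 and -0.29 in the mutant and -0.34, 0.49, 0.46 and 0.23 in N2. Mutant replicate 4 overlapped N2 replicate 1, and the gene rests on 1 probe, with p = 0.0571 in the exact permutation test. The log2 fold change was -0.77 (standard error 0.20, 95% interval -1.22 to -0.32), or 58.5% of the N2 signal, and -0.76 and -0.78 on the slides, with an adjusted p = 0.9997 from limma. *dod-3*, *lys-7* and *sod-3*, which encodes a superoxide dismutase, had estimates of -0.44, -0.41 and -0.38 with intervals across 0, and on slide 2 *lys-7* and *sod-3* were at 0.12 and 0.19. The other 7 tested targets lay between -0.12 and 0.01.

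**Figure D5:**
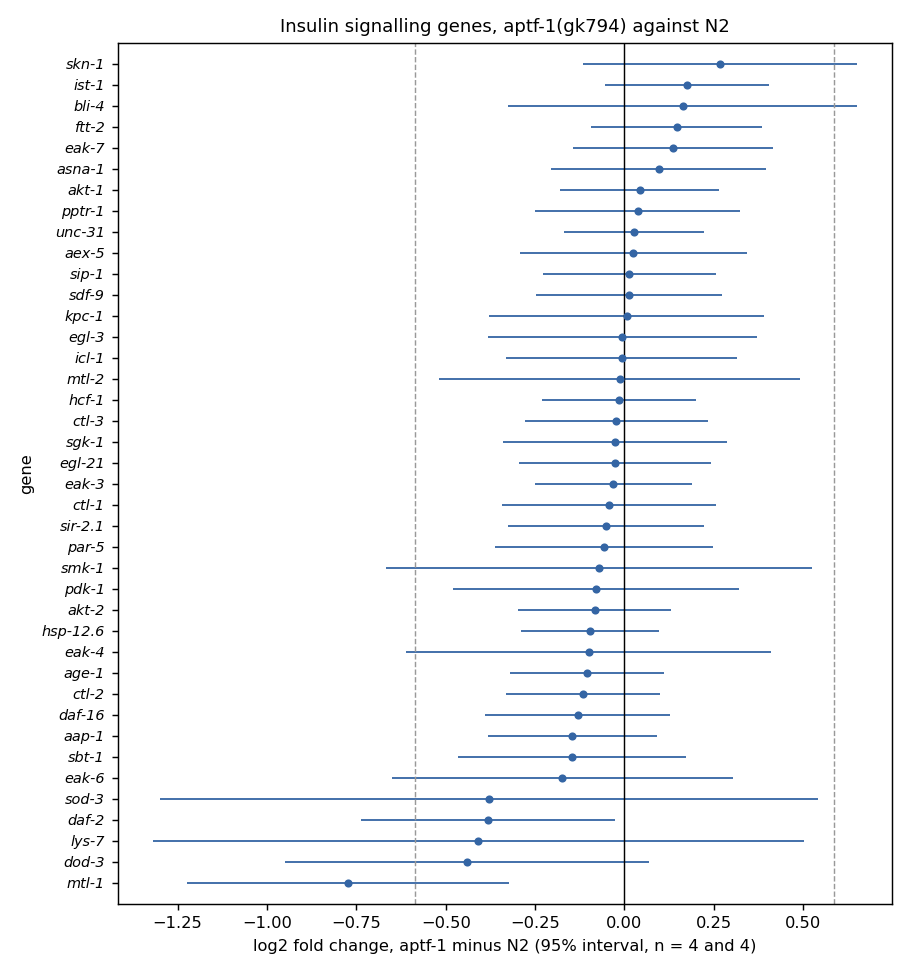
Log2 fold change in *aptf-1(gk794)* against N2 (horizontal axis) of 40 genes of insulin signalling (vertical axis, ordered by estimate), with 95% intervals from limma over 4 and 4 arrays and dashed lines at 1.5-fold. The intervals of the DAF-16 target *mtl-1* and of the receptor gene *daf-2* lie below 0 before adjustment. Between the dashed lines lie 30 of the 40 intervals.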

How the data were processed

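Genotypes and replicate numbers came from the sample records. The authors deposited, for each array, spot data from Agilent Feature Extraction (version 10.7.3.1) with a background-corrected intensity, and a table of log2 values of the same arrays with no stated scale, used as an alternative. Control spots (1417 per array) and outlier-marked spots were dropped, and each log2 intensity was scaled by subtracting the array's 75th percentile. Of 43603 probes 34268 were named through RefSeq genes of WBcel235. No coordinates are printed, since the array design rests on the older WS170. Probes were kept if marked well above background on 4 or more of the 8 arrays, averaged per gene and compared between genotypes by lmFit and eBayes of limma (version 3.58.1, R 4.3.3), with p-values adjusted over 20655 genes. The fit was run on simulated data, independent normal values per gene without effects of slide or replicate, as a check of the code only. Single genes were also compared by two-sided exact permutation tests, whose smallest p is 0.0286 here. Between 79.4% and 83.1% of probes were above background per array, no spot was saturated, and array correlations were 0.973 to 0.995; the number of arrays limits the precision. The study's notes name limma, and its text a fold change of 1.5; the study's normalization for these arrays is not given in the sources used here. The records give a growth temperature that differs from the general methods. The family, the list of signalling genes, markers and tests were chosen with earlier results of these data known. Values in every sample are given for genes with known roles in dauer entry or lifespan, the 3 brightest, the 6 with the smallest p and those whose probes differed in sign. The value of 1 signalling gene, though counted, is not reported here. Figures were drawn with matplotlib 3.10.9.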

Additional observations from a re-analysis of the deposited data

Results flagged for a closer look

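Among 86 groups of 4 arrays compared, 6 held an array whose gap to the nearest other array exceeded the critical share of the group's range in Dixon's test. Chance sets apart about 1 in 20 groups. In N2, replicate 4 stood above the others for *ins-10*, at -0.23 against -0.73 to -0.66 (gap 0.854 of the range), and below them for *ins-34*, at -1.42 against -0.34 to -0.23 (0.914), and for the receptor gene *daf-2*, at -2.97 against -2.59 to -2.54 (0.881). N2 replicate 3 was low for *ins-5*, at -5.68 against -5.06 to -4.94 (0.834). N2 replicate 2 was low for *ins-7*, at -7.09 against -6.13 to -5.97 (0.857). The same array had 79.4% of its probes above background, against 82.4% to 82.5% on the other N2 arrays (0.973). It detected 37 of the 40 insulin-like peptide genes, within the 36 to 38 of the other N2 arrays.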

How the results depend on the processing

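The count of 0 insulin-like peptide genes called held in all 27 alternatives, not all of which could change it. With the smallest adjusted p of the family at 0.9997 from limma, a stricter p or no fold change minimum could add no call. The median of the family kept its sign, between -0.118 and -0.00113, with both ends from arrays left out. It was -0.0280 or -0.0246 with normexp, whose offset of 50 draws dim probes towards 0. Genes with an unadjusted p under 0.05 numbered 0 to 3 with 1 array left out and 7 with array weights. When single probes were fitted, 10 probes had such a p, 7 of *ins-20*, 2 of *ins-16* and 1 of *ins-25*. Of the signalling genes 0 were called in 26 of 27 alternatives. The exception was Student's t-test without adjustment, which called 1, *mtl-1* at -0.77, and 87 genes in all against 8 in limma. Detection on at least 1 or on all 8 arrays gave 39 or 34 of the 40 genes. The estimates for *ins-20*, *ins-16*, *ins-24* and *ins-11* stayed below 0 in 26 of 26 alternatives each. Many of these alternatives returned the main estimate of each gene unchanged and so could not change a sign. They were the t-tests, eBayes with trend and robust, a stricter p, no fold change minimum and a block for slide or for replicate. Keeping outlier spots, using no filter and requiring detection on at least 1 array also left these estimates as they were. The count of 26 therefore overstates how often the sign was tested. Sign changes, with the cause not tested, were found in estimates near 0. For *ins-22* the estimate was 0.010 with median centring, 0.0469 with normexp and the 75th percentile and 0.0455 with normexp and quantile normalization, and -0.121 to 0.0855 with arrays left out. For *ins-27* it was 0.00407 with quantile normalization, 0.00299 with median centring, 0.0531 with array weights and 0.00357 with the deposited log2 values, and -0.0456 to 0.0590 with arrays left out. For *ins-29* it was -0.130 with array weights and -0.0687 to 0.234 with arrays left out. Without N2 replicate 4 *daf-28* was at 0.0975 and *ins-4* at 0.0171, and without N2 replicate 3 *ins-18* was at -0.000968, within -0.282 to 0.0975, -0.273 to 0.0171 and -0.000968 to 0.0614 over the arrays left out. Same-numbered samples of the genotypes deviated with correlations of 0.489, 0.273, -0.117 and 0.0835. Samples with different numbers had correlations from -0.360 to 0.223, so 0.489 and 0.273 were the highest of all. Same-numbered samples were not treated as pairs in the main fit. With the replicate number as a block 0 insulin-like peptide genes, 0 signalling genes and 5 genes in all were called. Of the 40 genes 28 lay under the 50th percentile, and 5 of the 25 tested among them had intervals within 1.5-fold, beside 42.4% of all genes under that percentile.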
